A study of Mus musculus with 9 samples.

Results

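Wnt ligands, their receptors and their secreted inhibitors were examined in mouse iPS cells, embryonic stem cells and embryonic fibroblasts. The members were the genes whose symbol has the form of a Wnt, Frizzled (Fzd), secreted Frizzled-related (Sfrp) or Dickkopf (Dkk) gene, together with Lrp5, Lrp6, Frzb and Wif1. The rule found 41 genes among the 19938 with a name of their own on the array, namely 19 Wnt ligands, 10 Frizzled receptors, the 2 LRP co-receptors and 10 secreted inhibitors. Membership used names alone, and where a gene had several probe sets the one with the highest mean signal over all arrays stood for it. All 41 entered the fit, since no filter on low signals was applied.

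RNA of 9 cultures was measured on Affymetrix whole-transcript arrays, with 3 arrays in each of 3 groups. The iPS arrays hold cells that the labels call inducible pluripotent stem cells, which were derived from embryonic fibroblasts. The R1 arrays hold the mouse embryonic stem cell line R1, and the MEF arrays hold the fibroblasts at a passage below 3 from which iPS cells were made. The iPS cells were set against both other groups. The labels do not state strain, embryonic stage of the fibroblasts, medium, feeder cells, reprogramming factors or the number of iPS clones. The 3 arrays of a line are described as biological repeats. Nothing says that they came from separate derivations, and a p-value here reflects only how far these cultures differed among themselves. R1 is a single established line.

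Array medians lay between 78.2 and 83.3 signal units. Of 18 markers of pluripotent cells, 18 were called higher in iPS cells and 18 in R1 cells, each against MEF, where "called" means an adjusted p under 0.05 and an absolute difference of at least 1 on the log2(signal + 16) scale. Pou5f1, which encodes Oct4, averaged 4137 ± 179.7 in iPS cells, 4706 ± 130.5 in R1 cells and 53 ± 9.91 in MEF (mean ± SD over 3 arrays, as for every mean given here). Of 22 fibroblast markers, 20 were called lower in iPS cells and 20 in R1 cells. Their summed signal was 12005 to 12698 in iPS cells, 10408 to 12382 in R1 cells and 64947 to 72486 in MEF. The summed signal of 12 skeletal muscle markers was 1047 to 1330 in iPS cells, 1049 to 1182 in R1 cells and 7084 to 8650 in MEF. In such bulk RNA, fewer cells of a type and less RNA per cell cannot be told apart.

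Wnt proteins are secreted, lipid-modified signals. They bind Frizzled receptors, and where Lrp5 or Lrp6 joins the complex, beta-catenin is spared from destruction and enters the nucleus with Tcf and Lef factors. Other Wnt proteins, with Wnt5a as the best known, act mainly through branches that do not need beta-catenin and that steer cell shape and movement. Sfrp proteins carry a domain like the ligand-binding part of a Frizzled and bind Wnt proteins outside the cell, as does Wif1, while several Dkk proteins block Lrp5 and Lrp6. In mouse embryonic stem cells, activity of the beta-catenin branch is known to favour self-renewal, and in the early embryo Wnt3 and beta-catenin are needed to form the primitive streak.

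Most of the members that differed were lower in pluripotent cells than in fibroblasts. Of the 41 members, 10 were called in iPS cells against MEF, with 2 higher and 8 lower. Over all genes 12.7% were called in that comparison, 5.08% higher and 7.58% lower, and the members' share was 24.4%. At any size of difference 26 members passed the adjusted p, beside 48.0% of all genes. In R1 cells against MEF 9 members were called, 1 higher and 8 lower, which is 22.0% of the members beside 13.5% of all genes (5.56% higher and 7.94% lower). At any size 22 members passed the adjusted p, beside 48.9%. Dim genes, with a mean under 50 in every group, made up 5557 of the 19938 genes and 3 of the 41 members. Shares over all genes, here and below, include these dim genes. With dim genes left out, 10 of 38 members and 2519 of 14381 genes were called in iPS cells against MEF. In R1 cells against MEF 9 of 38 members and 2688 of 14381 genes were called. The median log2 difference of the members was -0.21 in iPS cells against MEF and -0.14 in R1 cells against MEF, beside 0.02 over all genes in each comparison. The comparisons use the same MEF arrays and are therefore not independent of each other. In iPS against R1 cells 1 member was called, Wnt8a, beside 0.461% of all genes, 0.296% higher and 0.166% lower. In all, 11 members were called in at least 1 comparison and 30 in none.

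**Figure D1:**
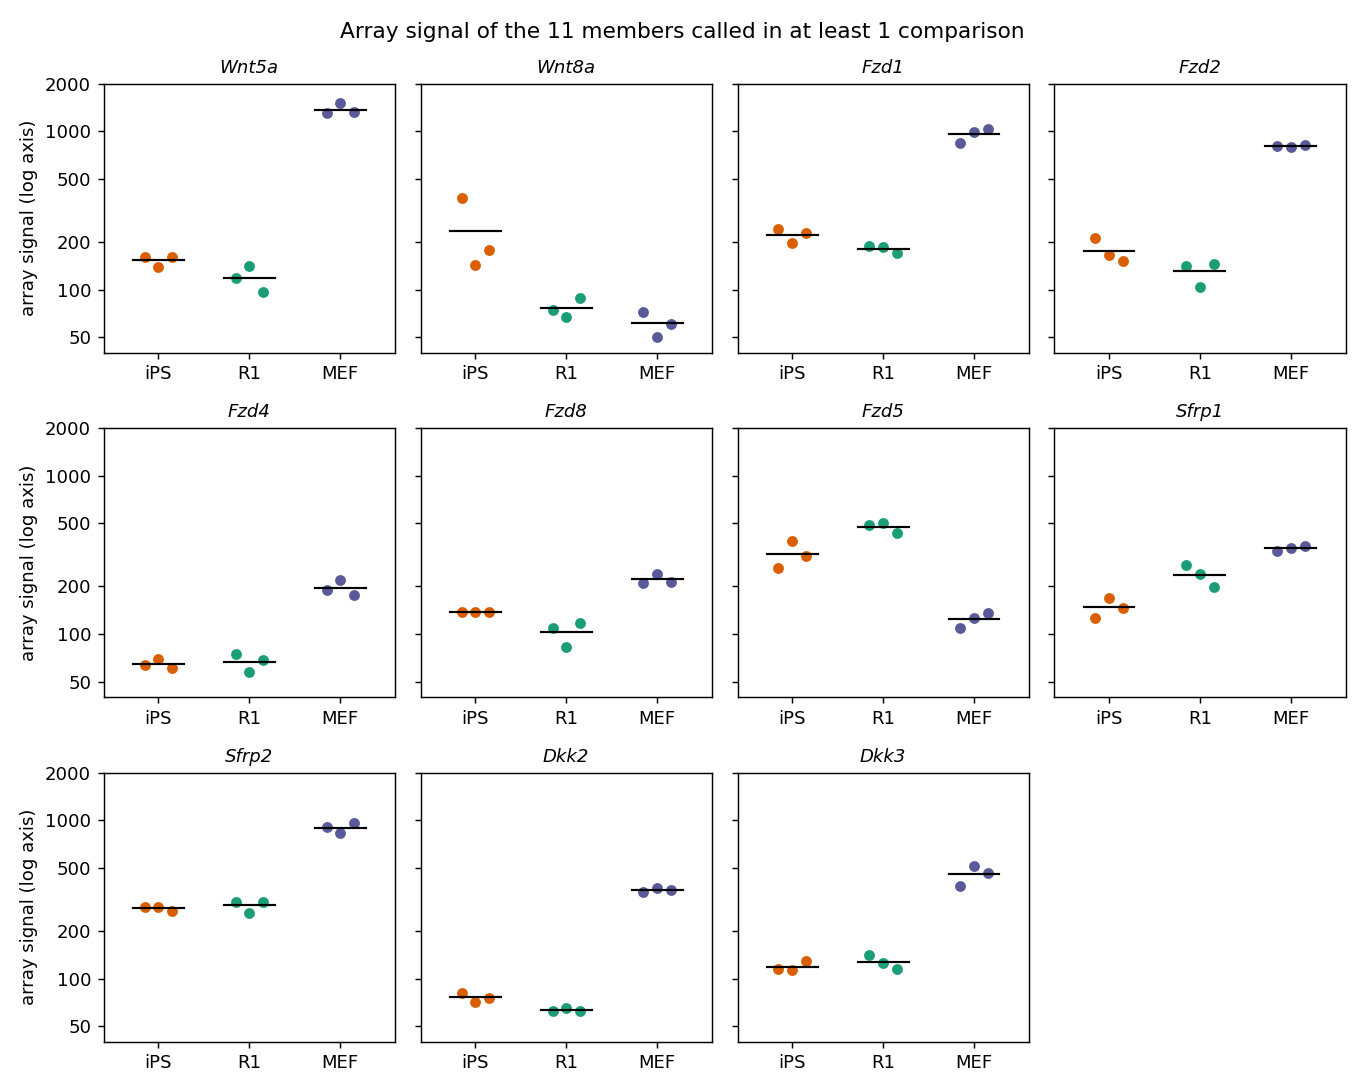
Array signal (log axis) of the 11 members called in at least 1 comparison, with a point for each array and a line at the mean of each group of 3 arrays. Wnt5a, Fzd1, Fzd2, Fzd4, Fzd8, Sfrp1, Sfrp2, Dkk2 and Dkk3 lie highest in MEF, Fzd5 lies highest in R1 cells and Wnt8a lies highest in iPS cells, where a single array reaches 380.0.

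Among the ligands, Wnt5a (probe set 10413482) had the largest difference of any member. Its signals were 161, 138 and 159.8 in iPS cells, 118, 141 and 97 in R1 cells and 1296, 1499 and 1323 in MEF. Every MEF array was far above all 6 pluripotent arrays, while the iPS and R1 arrays overlapped. The mean signal in MEF was 8.98 times that in iPS cells and 11.6 times that in R1 cells. Wnt5a fell by 3.04 on the log2 scale in iPS cells against MEF (SE 0.11, limma adjusted p = 2.39e-08) and fell by 3.38 in R1 cells against MEF (adjusted p = 1.07e-08). Between iPS and R1 cells the difference was 0.34, with a 95% interval of 0.08 to 0.60 and an adjusted p of 0.117. Its close paralog Wnt5b was not called, with differences of 0.14 in iPS cells against MEF (95% interval -0.14 to 0.43) and -0.04 in R1 cells against MEF (-0.33 to 0.24).

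Wnt8a (probe set 10454701), a ligand that in the mouse embryo is expressed around the forming primitive streak, was the ligand called higher in iPS cells. Its signals were 380.0, 143 and 179 in iPS cells, 74.5, 67.2 and 88 in R1 cells and 72.5, 50.2 and 61 in MEF. The iPS arrays did not overlap with the others, and iPS replicate 1 stood more than 200 signal units above both other iPS arrays. Wnt8a rose in iPS cells by 1.59 ± 0.28 (SE) on the log2 scale against MEF (adjusted p = 0.000948) and by 1.32 ± 0.28 against R1 cells (adjusted p = 0.0214). In R1 cells against MEF it differed by 0.27 (adjusted p = 0.51). The call between iPS and R1 cells was lost without iPS replicate 1, where the difference was 0.93 and the adjusted p 0.00885. Leaving out R1 replicate 1 gave an adjusted p of 0.0748, leaving out R1 replicate 2 gave 0.0649, and a limma fit of the iPS and R1 arrays alone gave 0.0642.

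The same iPS array was the highest of the 3 iPS arrays for 29 of the 41 members, beside 37.4% of all genes. It was also the highest iPS array for 8 of 9 measured markers of streak and early mesoderm. Its median signal over all probe sets was 83.3, beside 82.7 in iPS replicate 2 and 81.6 in iPS replicate 3. Over all genes its deviations from the group mean correlated with those of R1 replicate 1 (0.24) and MEF replicate 1 (0.23). Whether a shift common to the replicate 1 arrays had a part in these ranks was not tested. Wnt3 had signals of 129.8, 95 and 82.7 in iPS cells, 75.1, 68.1 and 76.6 in R1 cells and 75.6, 69.6 and 65.3 in MEF. Its iPS arrays were all above the R1 and MEF arrays, with differences of 0.44 against MEF (adjusted p = 0.0135) and 0.39 against R1 cells (adjusted p = 0.0947), and it was not called. Eomes, a T-box factor of the streak, had 407, 194 and 202 in iPS cells and 128, 151 and 146 in R1 cells, and Mixl1, a homeobox gene of the streak, had 138, 101 and 75.6 in iPS cells and 78.8, 78.8 and 81.6 in R1 cells. Between iPS and R1 cells neither Eomes (0.77, adjusted p = 0.099) nor Mixl1 (0.31, adjusted p = 0.307) was called. Of the 9 streak markers, 5 were higher and 4 lower in iPS against R1 cells with a median difference of 0.02, 0 were called or passed limma's adjusted p, and 1 had an unadjusted p under 0.05. Summed over the 9, the signal was 1173, 828 and 747 in iPS cells and 762, 748 and 775 in R1 cells, and Eomes alone made up 407 of the highest sum. Brachyury, a defining streak marker, was not analysed here, and Mesp1, a mesoderm marker, averaged 41.5 ± 2.48 in iPS cells and 47.7 ± 5.92 in R1 cells. Whether cells of streak character had a part in the Wnt8a result was not tested.

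**Figure D2:**
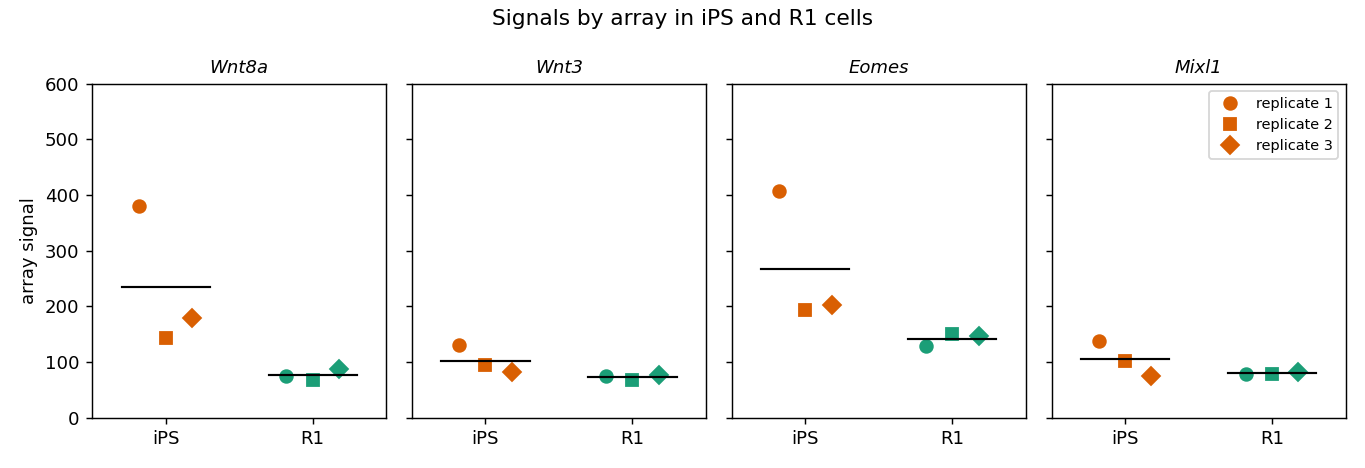
Array signal (linear axis from 0) of Wnt8a, Wnt3, Eomes and Mixl1 in iPS and R1 cells, with a marker shape for each replicate number and a line at each group's mean. For these 4 genes, which were picked after their values were seen, iPS replicate 1 is the highest array, as it is among the iPS arrays for 29 of the 41 members, and for Mixl1 the iPS and R1 arrays overlap.

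The other 17 ligands were not called in any comparison, and 3 of them, Wnt1, Wnt7a and Wnt8b, averaged under 50 in every group. The signals of these 3 ran from 35.0 to 52.0 in iPS cells, 33.1 to 49.5 in R1 cells and 31.6 to 47.5 in MEF, and without detection calls such values are not told apart from background. Wnt2 and Wnt2b, which are expressed in mesenchyme of several embryonic organs, were lower in both pluripotent lines with an adjusted p under 0.05, though by less than the minimum of 1. Wnt2 averaged 48.2 ± 7.20 in iPS cells, 57.9 ± 4.61 in R1 cells and 92.8 ± 12.9 in MEF, differences of -0.76 in iPS cells and -0.55 in R1 cells against MEF. Wnt2b had 60.5, 63.6 and 59.3 in iPS cells, 56.9, 52.3 and 51.6 in R1 cells and 97.7, 108 and 109 in MEF, differences of -0.65 in iPS cells and -0.79 in R1 cells against MEF. No Wnt2b array of a pluripotent line reached a MEF array.

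Wnt4, Wnt11 and Wnt16 differed from MEF by less. Wnt11, a ligand of cell movement in gastrulation, averaged 105 ± 2.33 in iPS cells, 98.7 ± 6.25 in R1 cells and 133 ± 19.2 in MEF (differences of -0.29 in iPS cells and -0.37 in R1 cells against MEF, adjusted p = 0.0189 in iPS cells and 0.00479 in R1 cells). Wnt4, which is needed for kidney tubules in the mouse, was the only member with several probe sets. The probe set used gave -0.26 in iPS cells against MEF and -0.32 in R1 cells against MEF, and the other gave -0.48 in iPS cells and -0.53 in R1 cells, so both were lower. Wnt16, a ligand known from bone, differed by -0.21 in iPS cells and -0.20 in R1 cells against MEF, and its arrays met or overlapped those of MEF.

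Wnt7b, a ligand of lung and kidney development in the mouse, was the other ligand that differed between the pluripotent lines at an adjusted p under 0.05. Its signals were 144, 150.1 and 184 in iPS cells, 124, 124 and 118 in R1 cells and 106, 104 and 113 in MEF, and no group overlapped with another. The difference was 0.34 in iPS against R1 cells (95% interval 0.16 to 0.52, adjusted p = 0.0281) and 0.50 in iPS cells against MEF (adjusted p = 0.000417), each under the minimum for a call. For Wnt3a, Wnt5b, Wnt6, Wnt9a, Wnt9b, Wnt10a and Wnt10b no difference passed the adjusted p in any comparison. The array signals of the last 6 ran from 67.2 to 137 in iPS cells, 71 to 131 in R1 cells and 76.6 to 115 in MEF. Wnt3a, the ligand most used to activate the beta-catenin branch in culture, had 93.7, 81 and 80.4 in iPS cells, 89.9, 74 and 78.2 in R1 cells and 80.4, 59.3 and 80.4 in MEF. Its 3 groups overlapped, and the interval of the difference was -0.05 to 0.42 in iPS cells against MEF and -0.17 to 0.30 in iPS against R1 cells.

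**Figure D3:**
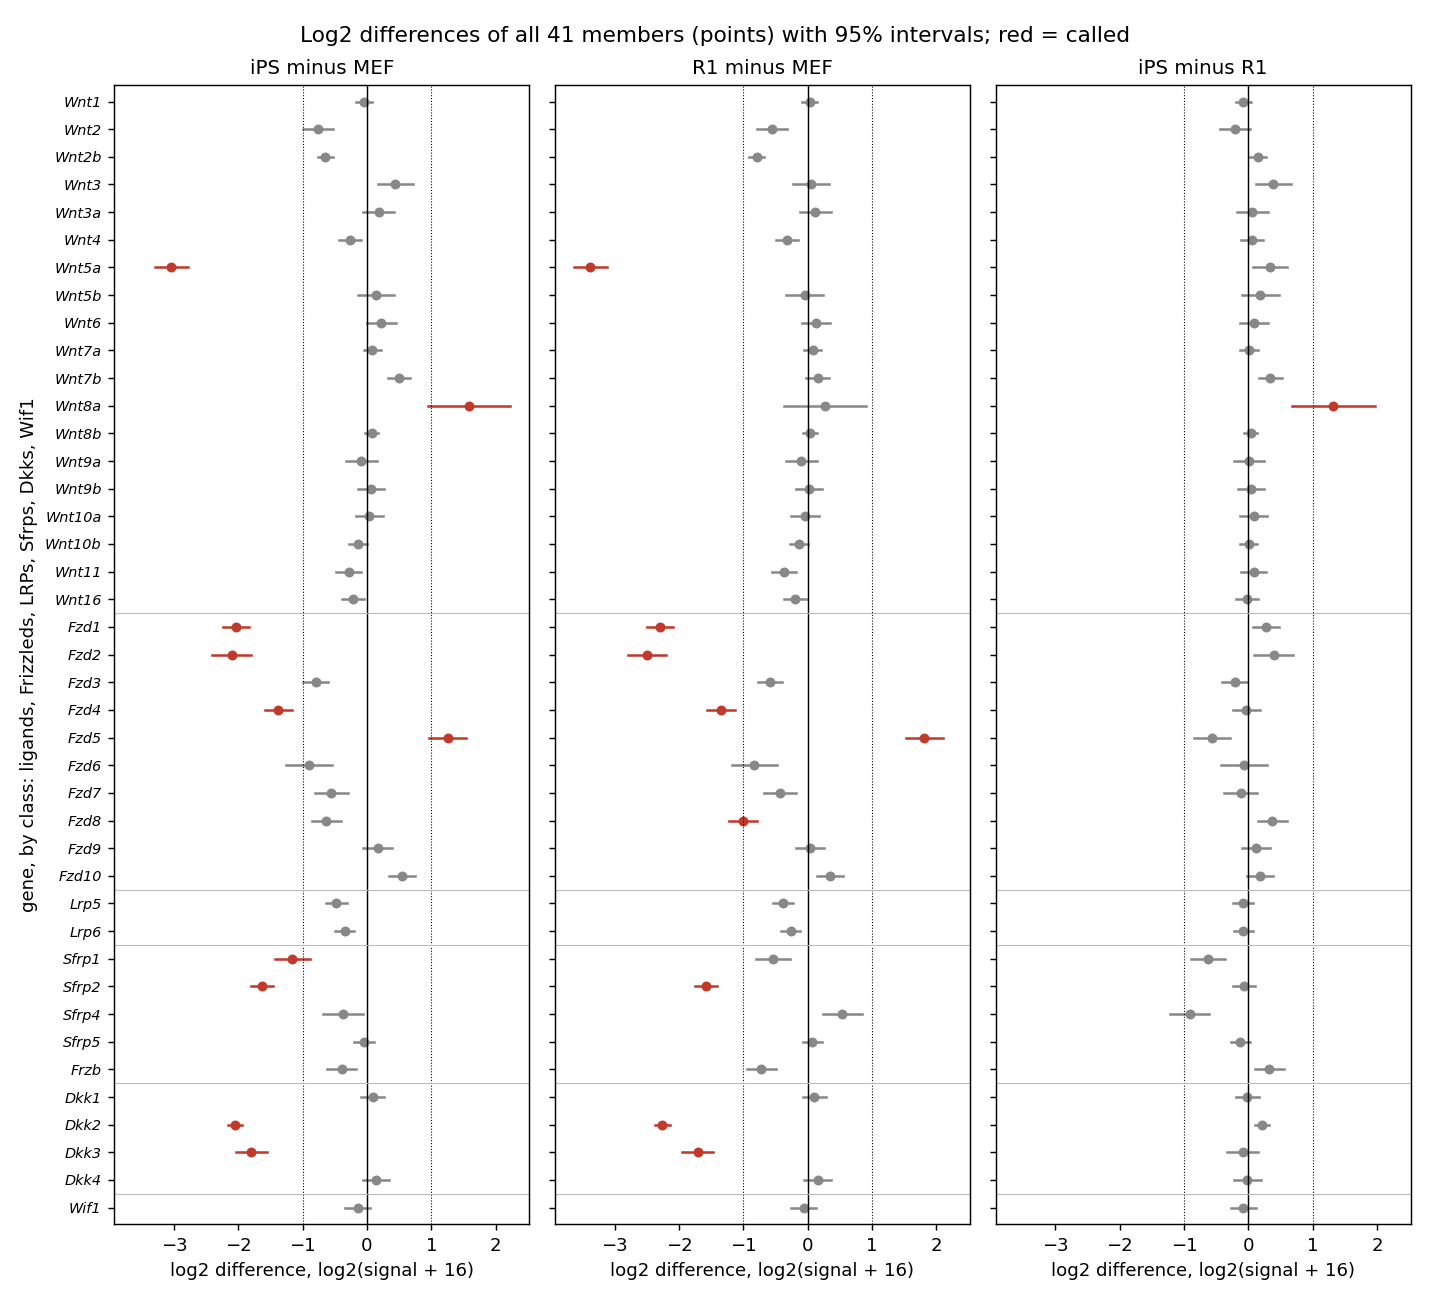
Log2 difference of each of the 41 members (point) with its 95% interval (bar) in iPS minus MEF, R1 minus MEF and iPS minus R1, ordered by class, with called genes in red and dotted lines at the minimum of 1 in either direction. Called genes lie mostly left of 0 in both comparisons with MEF, with Fzd5 to the right in both, and Wnt8a is the single red point in iPS minus R1.

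The Frizzled receptors showed changes in both directions. Of the 10, 1 was called higher and 3 lower in iPS cells against MEF, and 1 higher and 4 lower in R1 cells against MEF, beside 12.7% of all genes called in iPS cells and 13.5% in R1 cells. For 9 of the 10 the arrays did not overlap with MEF in iPS cells, and likewise 9 in R1 cells, beside 52.3% and 54.4% of all genes. The median difference of the class was -0.72 in iPS cells and -0.71 in R1 cells. Fzd1 (probe set 10527936), Fzd2 (10381603) and Fzd4 (10554808) fell in both lines, Fzd8 (10453738) fell in R1 cells and was not called in iPS cells, and Fzd5 (10355152) rose in both.

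The promoter windows of the Frizzled genes called in both lines that the RefSeq promoter table holds, with that of the inhibitor Dkk2, are shown because these genes moved in different directions. Each is the 250 bases before the annotated start in GRCm38.p6, 5′ to 3′ on the strand of the gene. Capitals mark every match, on either strand, to the GC box motif GGGCGG, to the TATA box motif TATAAA, to CTTTGA and to the related CTTTGT. The last 2 are cores of the site that Tcf and Lef factors bind, and adjoining matches run together.
Fzd5, chr1:64737751-64738000, minus strand: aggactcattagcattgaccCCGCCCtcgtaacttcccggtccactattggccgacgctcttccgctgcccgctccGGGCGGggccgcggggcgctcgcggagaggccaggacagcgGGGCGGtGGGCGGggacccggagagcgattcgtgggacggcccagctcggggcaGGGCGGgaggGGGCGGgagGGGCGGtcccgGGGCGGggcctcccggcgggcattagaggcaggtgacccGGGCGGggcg
Fzd1, chr5:4758217-4758466, minus strand: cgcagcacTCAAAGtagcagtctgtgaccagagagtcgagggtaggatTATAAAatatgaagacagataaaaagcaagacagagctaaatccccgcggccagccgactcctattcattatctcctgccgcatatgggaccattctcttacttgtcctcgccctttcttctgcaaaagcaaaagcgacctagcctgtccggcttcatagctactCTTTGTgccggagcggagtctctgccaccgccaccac
Fzd4, chr7:89404116-89404365, plus strand: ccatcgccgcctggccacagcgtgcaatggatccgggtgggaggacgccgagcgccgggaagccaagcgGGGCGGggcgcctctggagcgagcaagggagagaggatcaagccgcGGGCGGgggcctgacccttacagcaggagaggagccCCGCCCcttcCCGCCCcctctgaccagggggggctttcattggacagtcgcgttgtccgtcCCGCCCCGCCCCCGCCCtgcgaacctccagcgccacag
Dkk2, chr3:132085042-132085291, plus strand: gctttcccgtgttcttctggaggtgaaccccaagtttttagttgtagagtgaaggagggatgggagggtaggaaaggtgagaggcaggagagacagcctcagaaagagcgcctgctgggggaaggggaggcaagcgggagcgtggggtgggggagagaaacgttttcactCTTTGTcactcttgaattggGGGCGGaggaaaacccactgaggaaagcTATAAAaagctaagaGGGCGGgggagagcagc
The Fzd5 window, of the gene that rose, held 9 GC boxes and 32 CG dinucleotides and no match to the other letters searched. The Fzd4 window, of a gene that fell, was alike in this, with 7 GC boxes and 25 CG dinucleotides. The Fzd1 window held no GC box, 12 CG dinucleotides, 1 TATAAA whose first base lies 202 bases before the start, 1 CTTTGA and 1 CTTTGT. The Dkk2 window held 2 GC boxes, 1 TATAAA that starts 32 bases before the start, 1 CTTTGT and 7 CG dinucleotides. Of all 32851 windows of this length, 32.7% held GGGCGG, 12.4% TATAAA, 13.8% CTTTGA and 16.5% CTTTGT, and the median number of CG dinucleotides was 6. Of the 30 windows of the 27 members in the table, 22 held GGGCGG and 5 each of the other motifs. These matches describe letters and do not show binding.

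Fzd1 and Fzd2 are closely related receptors. Fzd1 had 242, 197 and 229 in iPS cells, 189, 185 and 171 in R1 cells and 849, 996 and 1031 in MEF. Every MEF array was above every pluripotent array, and the iPS arrays lay above the R1 arrays by a small margin. Fzd1 fell by 2.03 on the log2 scale in iPS cells against MEF (adjusted p = 6.72e-08) and fell by 2.30 in R1 cells against MEF (adjusted p = 2.69e-08). Fzd2, a receptor used by Wnt5a in other systems, had 212, 167 and 151 in iPS cells, 142, 104 and 146 in R1 cells and 803, 792 and 820.3 in MEF, again with no MEF array near the others. It fell by 2.10 in iPS cells (SE 0.13) and fell by 2.50 in R1 cells (SE 0.13), both against MEF. Between iPS and R1 cells Fzd1 differed by 0.27 (95% interval 0.07 to 0.47, adjusted p = 0.114) and Fzd2 by 0.39 (0.10 to 0.69, adjusted p = 0.115).

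Fzd7, the third member of that subfamily, was not called in either line. Its signals were 676, 704 and 749.6 in iPS cells, 861, 662 and 809 in R1 cells and 929, 1201 and 1031 in MEF. The MEF arrays were the highest, but the differences of -0.55 in iPS cells and -0.43 in R1 cells against MEF (adjusted p = 0.00204 in iPS cells and 0.00865 in R1 cells) were under the minimum for a call. Fzd7 has been described as a main Wnt receptor of human pluripotent cells, and in these mouse lines its mean was 0.674 of the MEF mean in iPS cells and 0.738 in R1 cells. For Fzd1 the corresponding ratios were 0.232 in iPS cells and 0.189 in R1 cells, and for Fzd2 0.219 in iPS cells and 0.162 in R1 cells. Whether Fzd7 differed less than Fzd1 and Fzd2 was not tested.

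Fzd4, a receptor of vascular development that also binds the non-Wnt ligand norrin, had 64, 69.6 and 61.4 in iPS cells, 75.1, 57.3 and 69.1 in R1 cells and 191, 218 and 176 in MEF. The pluripotent lines overlapped with each other and not with MEF. Fzd4 fell by 1.38 in iPS cells and fell by 1.35 in R1 cells against MEF, and between the pluripotent lines the difference was -0.03 (95% interval -0.25 to 0.18). Fzd8 had 137, 137 and 137 in iPS cells, 109, 83.3 and 117 in R1 cells and 211, 241 and 214 in MEF, so the iPS arrays had equal values, which were deposited in rounded steps, and lay between the other groups. Fzd8 fell in R1 cells against MEF (-1.01 ± 0.10 SE), at the edge of the minimum, and was not called without R1 replicate 2 (-0.88) or MEF replicate 2 (-0.95). In iPS cells against MEF the difference was -0.63 (adjusted p = 0.000402) and was not called. In iPS against R1 cells it was 0.37 (95% interval 0.15 to 0.60), with an adjusted p at 0.05.

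Fzd5, which is needed for blood vessel formation in the mouse yolk sac, was the receptor called higher in pluripotent cells. Its signals were 263, 385 and 313 in iPS cells, 488, 505 and 437 in R1 cells and 109.9, 127 and 135 in MEF. No group overlapped with another, with R1 cells highest and MEF lowest. The mean was 2.58 times that of MEF in iPS cells and 3.84 times in R1 cells, and Fzd5 rose by 1.25 ± 0.12 in iPS cells (SE, adjusted p = 1.6e-05) and by 1.82 ± 0.12 in R1 cells (adjusted p = 1.06e-06). Between iPS and R1 cells it differed by -0.56 (95% interval -0.84 to -0.28, adjusted p = 0.0243), which passed the adjusted p but not the minimum difference.

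Fzd3 and Fzd6, receptors of planar cell polarity, were lower in both lines without being called. Fzd3 had 118, 111 and 128 in iPS cells, 144, 144 and 133 in R1 cells and 198, 251 and 209 in MEF, with differences of -0.80 in iPS cells and -0.59 in R1 cells against MEF (adjusted p = 2.44e-05 in iPS cells and 0.000211 in R1 cells). Fzd6 had 190.0, 156 and 185 in iPS cells, 197, 204 and 159.8 in R1 cells and 282, 449 and 317 in MEF. Its MEF arrays varied most, and without MEF replicate 1 Fzd6 was called in iPS cells against MEF (-1.03), against -0.90 with all arrays. Fzd10 was higher in both lines, with means of 138 ± 16.6 in iPS cells, 119 ± 5.42 in R1 cells and 89.8 ± 9.99 in MEF and differences of 0.54 in iPS cells and 0.35 in R1 cells against MEF (adjusted p = 0.000587 in iPS cells and 0.00808 in R1 cells). Fzd9 passed no test for a difference from MEF, with differences of 0.16 in iPS cells and 0.04 in R1 cells.

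The co-receptors Lrp5 and Lrp6, which carry the signal to the beta-catenin branch, differed little. Lrp5 had 278, 252 and 239 in iPS cells, 274, 267 and 278 in R1 cells and 338, 396 and 355 in MEF. Lrp6 had 556, 519 and 549 in iPS cells, 588, 588 and 541 in R1 cells and 653, 760.1 and 666 in MEF. For both genes all MEF arrays lay above all pluripotent arrays, and the iPS and R1 arrays overlapped. The differences against MEF were -0.47 in iPS cells and -0.39 in R1 cells for Lrp5 and -0.34 in iPS cells and -0.27 in R1 cells for Lrp6, with adjusted p between 0.000256 and 0.00681. Neither was called. Between iPS and R1 cells the intervals were -0.25 to 0.07 for Lrp5 and -0.23 to 0.07 for Lrp6.

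Of the 10 secreted inhibitors, 4 were called lower in iPS cells against MEF and 3 in R1 cells against MEF, with 0 higher in each, beside 7.58% of all genes called lower in iPS cells and 7.94% in R1 cells. Sfrp2 (probe set 10492798), an inhibitor made by mesenchyme, had 282, 282 and 269 in iPS cells, 307, 259.6 and 307 in R1 cells and 904, 826 and 962 in MEF. The MEF arrays stood apart from both lines, which overlapped. Sfrp2 fell by 1.63 in iPS cells (adjusted p = 8.5e-08) and fell by 1.57 in R1 cells (adjusted p = 9.22e-08), and the difference between the lines was -0.06 (95% interval -0.23 to 0.11). Sfrp1 (probe set 10570957) had 127, 170.1 and 147 in iPS cells, 274, 239 and 198 in R1 cells and 333, 352 and 359.5 in MEF. Its 3 groups were separate, in the order iPS, R1 and MEF from low to high. Sfrp1 fell in iPS cells against MEF (-1.16 ± 0.12 SE, adjusted p = 1.91e-05), while R1 cells against MEF gave -0.54 (adjusted p = 0.00349) and iPS against R1 cells gave -0.62 (95% interval -0.89 to -0.36, adjusted p = 0.0122), neither of them called.

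Sfrp4 was the inhibitor with the largest difference between the pluripotent lines. Its signals were 44.6, 31.1 and 42.8 in iPS cells, 79.3, 77.2 and 109.9 in R1 cells and 52.7, 64 and 50.6 in MEF. R1 cells were highest, MEF intermediate and iPS cells lowest, and no groups overlapped, although all values were low. In iPS against R1 cells Sfrp4 differed by -0.91 ± 0.14 (SE, 95% interval -1.22 to -0.61, adjusted p = 0.00409), just short of the minimum. With a pseudocount of 1 in place of 16 the difference was -1.15 and the gene was called. Frzb, which also belongs to this family, averaged 41.8 ± 6.91 in iPS cells, 30.04 ± 4.57 in R1 cells and 59.7 ± 3.89 in MEF, with differences of -0.39 in iPS cells and -0.72 in R1 cells against MEF. Sfrp5 differed by less than 0.13 in every comparison.

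The Dickkopf genes divided by member. Dkk2 (probe set 10496125) had 81, 71.5 and 75.6 in iPS cells, 62.7, 64.9 and 62.7 in R1 cells and 355, 372 and 365 in MEF, and the MEF arrays were more than 4 times any other. It fell by 2.05 in iPS cells and fell by 2.26 in R1 cells, both against MEF (adjusted p = 2.12e-09 in iPS cells and 1.16e-09 in R1 cells). Dkk3 (probe set 10567010), a divergent member of the family, had 115, 113 and 129.8 in iPS cells, 142, 125 and 115 in R1 cells and 385, 516 and 468 in MEF. It fell by 1.80 in iPS cells and fell by 1.71 in R1 cells, both against MEF. Dkk1, the classical blocker of Lrp5 and Lrp6, averaged 57.6 ± 8.39 in iPS cells, 58.2 ± 2.02 in R1 cells and 53 ± 3.69 in MEF, and its difference was 0.09 in iPS cells against MEF (95% interval -0.09 to 0.27). Dkk4 and Wif1 also passed no test, with differences of 0.14 for Dkk4 and -0.14 for Wif1 in that comparison.

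Between the pluripotent lines, Dkk2 was slightly higher in iPS than in R1 cells (0.21, 95% interval 0.10 to 0.32, adjusted p = 0.0286), while Dkk3 differed by -0.09 (-0.33 to 0.16). In all, 7 members passed the adjusted p in iPS against R1 cells without regard to size, beside 8.52% of all genes. These were Wnt7b, Wnt8a, Fzd8 and Dkk2, which were higher in iPS cells, and Fzd5, Sfrp1 and Sfrp4, which were lower. The arrays of all 3 groups were mutually separate for 11 of the 41 members, beside 14.9% of all genes, and these included Fzd5, Fzd8, Sfrp1, Sfrp4, Dkk2 and Wnt7b.

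The genes that make, modify and carry the Wnt signal were read beside the members from a list of 94 other pathway genes that could be measured. Of these, 5 were called higher and 14 lower in iPS cells against MEF, and 5 higher and 15 lower in R1 cells against MEF. In iPS against R1 cells 2 were called higher and 0 lower. The shares called were 20.2%, 21.3% and 2.13%, beside 12.7%, 13.5% and 0.461% of all genes in the same order. With dim genes left out, 19, 20 and 2 of 90 were called in that order, beside 2519, 2688 and 92 of 14381 genes. Of 35 genes of secretion, reception and modulation, 2 were higher and 7 lower in iPS cells against MEF. That is 25.7% of them, beside 12.7% of all genes. In R1 cells against MEF 2 were higher and 9 lower, which is 31.4%, beside 13.5% of all genes. Of these, Ptk7 (-1.04) and Ror2 (-1.04) were not called with quantile normalization or without MEF replicate 2. Wls, the carrier that takes Wnt proteins to the cell surface, had 237, 241 and 241 in iPS cells, 88.6, 165 and 87.4 in R1 cells and 1509.7, 1596 and 1489 in MEF. It fell in both lines against MEF (-2.60 in iPS cells and -3.63 in R1 cells) and was higher in iPS than in R1 cells (1.03 ± 0.18 SE, adjusted p = 0.00892). The R1 arrays were uneven for Wls, with replicate 2 the highest of them, and the call between iPS and R1 cells was lost without R1 replicate 1 (0.90) or R1 replicate 3 (0.89). R1 replicate 2 also had the highest summed fibroblast signal of the R1 arrays, 12382 against 10408 and 10548. The sums of the iPS arrays, which were higher for Wls, were 12698, 12005 and 12153. Whether fibroblast RNA had a part in the Wls values was not tested. Porcn, the enzyme that attaches the lipid to Wnt proteins, moved the other way from Wls and rose by 2.04 in iPS cells and 1.67 in R1 cells, with means of 488 ± 99.5 in iPS cells, 371 ± 56.5 in R1 cells and 105 ± 9.06 in MEF.

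Other genes named from this list were the trophoblast glycoprotein Tpbg, an inhibitor of Wnt reception, which fell by 2.08 in iPS cells and fell by 2.61 in R1 cells, and the membrane inhibitor Apcdd1 (-1.68 in iPS cells and -1.81 in R1 cells). Notum, an enzyme that removes the lipid from Wnt proteins and is itself a Wnt target, rose in both lines (1.58 in iPS cells and 1.79 in R1 cells). Of 41 intracellular transducers, 2 were higher and 3 lower in each comparison with MEF. Their share was 12.2%, beside 12.7% of all genes in iPS cells and 13.5% in R1 cells. Of the 41, 0 were dim. With dim genes left out, 2519 of 14381 genes were called in iPS cells and 2688 in R1 cells. The transducers that rose were the co-repressor Tle4 and the nuclear factor Lef1. Tle4 rose by 2.69 in iPS cells and 2.77 in R1 cells, and Lef1 by 2.27 in iPS cells and 1.94 in R1 cells. Those that fell included the nuclear factor Tcf7l2 (-1.16 in iPS cells and -1.51 in R1 cells). Bcl9l, a beta-catenin cofactor, fell by 1.02 in iPS cells and fell by 1.16 in R1 cells. The call in iPS cells was lost without iPS replicate 2 (-0.98) or MEF replicate 3 (-0.98) and with quantile normalization (-0.94). Both Bcl9l calls were lost with a pseudocount of 64 (-0.84 in iPS cells and -0.94 in R1 cells) and in the test against a difference of 1. The kinase Csnk1e fell in iPS cells (-1.30) and was not called in R1 cells (-0.97).

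Of 25 textbook targets of the beta-catenin branch, 3 were called higher and 4 lower in iPS cells against MEF. In R1 cells against MEF 3 were called higher and 3 lower. These are 28% of the targets in iPS cells and 24% in R1 cells, beside 12.7% and 13.5% of all genes. Higher were Lef1, Notum and Nr5a2, a nuclear receptor that is also part of the pluripotent network (3.32 in iPS cells and 3.51 in R1 cells). Lower in both were Ccn4 (-3.59 in iPS cells and -3.79 in R1 cells), Ccn1 (-1.89 in iPS cells and -2.93 in R1 cells) and Twist1 (-2.16 in iPS cells and -2.47 in R1 cells), of which Twist1 also stands among the fibroblast markers. Ccn1, a matricellular protein, was called higher in iPS than in R1 cells (1.05 ± 0.08 SE), and was not called without R1 replicate 3 (0.97). Axin2, a feedback inhibitor widely used as a readout of the beta-catenin branch and named here outside the rule, was not called, with means of 169 ± 22.6 in iPS cells, 133 ± 12.1 in R1 cells and 103 ± 12.2 in MEF and a difference of 0.63 in iPS cells against MEF (adjusted p = 0.000587). Of the 22 fibroblast markers, 18 had a higher signal in iPS than in R1 cells, beside 9363 of all 19938 genes. In limma 0 of the 22 were called, and 3 passed the adjusted p at any size of difference, beside 8.52% of all genes. At an unadjusted p under 0.05 there were 9 of the 22, beside 4109 of all 19938 genes. Col1a1, a collagen chain, averaged 1229 ± 108 in iPS cells, 785 ± 211 in R1 cells and 10144 ± 597 in MEF. The part of fibroblast or muscle RNA in the members' differences was not tested.

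**Figure D4:**
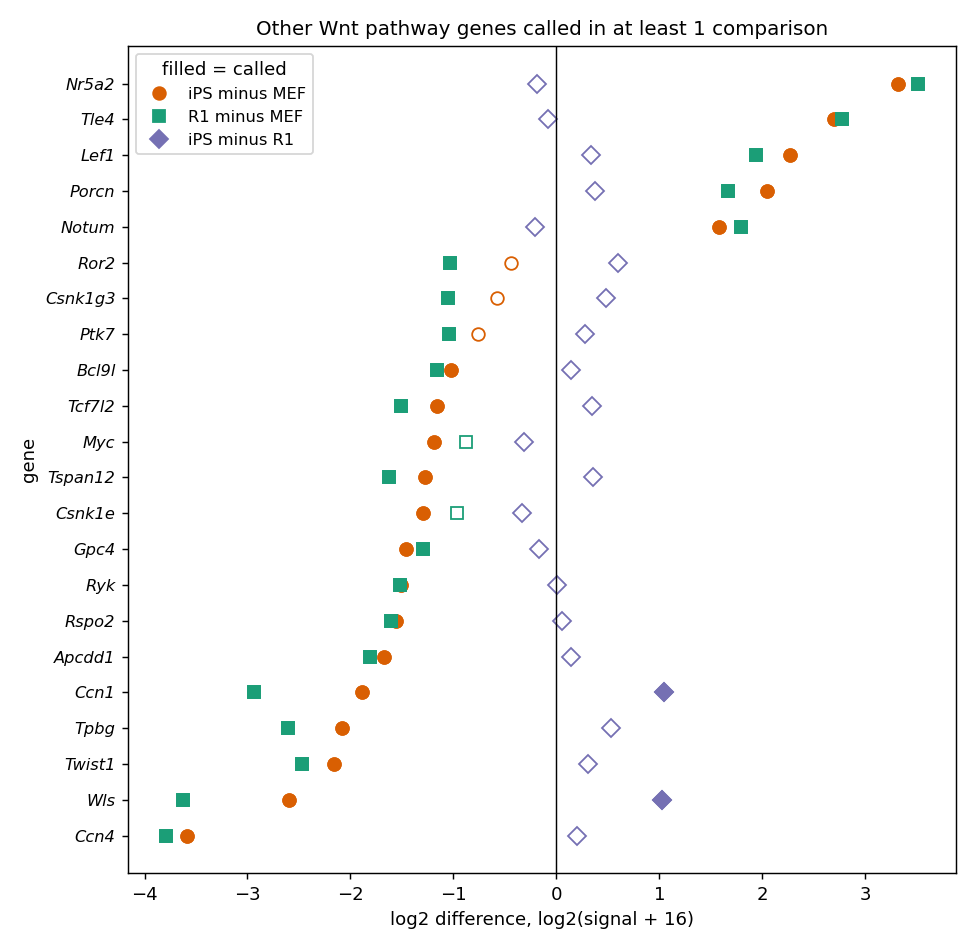
Log2 differences of the other Wnt pathway genes called in at least 1 comparison, ordered by iPS minus MEF, with filled symbols for called and open symbols for uncalled differences. Nr5a2, Tle4, Lef1, Porcn and Notum lie right of 0 in both comparisons with MEF, and Wls and Ccn1 are the filled points in iPS minus R1.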

How the data were processed

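Total RNA was extracted with Trizol and labelled with Affymetrix whole-transcript kits, per the labels' protocols. The table deposited by the authors holds 1 intensity per probe set and array on a linear scale. Taken as log2, each deposited value had at most 2 decimals. GCOS 1.4 is named in the submitters' processing notes, and the sources used here do not give the background correction, summarization or normalization. Depth does not apply to arrays, and their number limits the precision.

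The array has 35557 probe sets. The annotation of the platform gave a single symbol for 21789 of them, and the probe set with the highest mean was kept for each of 19938 genes. No further normalization was applied. Values were analysed as log2(signal + 16), which understates differences of dim genes, in limma 3.58.1 under R 4.3.3, using lmFit and eBayes with a mean for each group, 6 residual degrees of freedom and Benjamini-Hochberg adjustment over all genes. A call needed an adjusted p under 0.05 and a log2 difference of at least 1 in either direction. Only called genes are said to have risen or fallen. Errors are standard errors of the fit, and intervals are 95% intervals of it, not adjusted for the number of genes.

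Every member is named. Array values are given for members called in any comparison or with a group mean of at least 200, and for a few others. From each list of other pathway genes, up to 4 called genes with the largest differences per comparison are named, and genes beyond this were chosen after their values were seen. The members and lists were chosen with earlier results of these data known. On data simulated for iPS against MEF with 19938 genes, 97% of 100 genes changed by 1.2 log2 units were called. Of 100 genes changed by 2 log2 units 99% were called, with 0 false calls. The changed genes were drawn without the genes of lowest mean signal, and every other gene was left unchanged. Recovery was therefore not measured for the dimmest genes, nor for iPS against R1. Alternatives covered pseudocount, normalization, dim genes, probe sets, thresholds, trend, arrays in the fit, the replicate block and leaving out each array.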

Additional observations from a re-analysis of the deposited data

How the results depend on the processing

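The counts of called members in iPS against MEF (10) and R1 against MEF (9) stayed within 1.5 times under every alternative except that without a minimum difference, which gave 26 and 22. That setting also gave 9572 called genes in iPS against MEF, 9750 in R1 against MEF and 1699 in iPS against R1, in place of 2524, 2691 and 92, with 4945 of the 9572 and 5162 of the 9750 higher, and 67, 63 and 14 other pathway genes, in place of 19, 20 and 2. Testing against a difference of 1 gave 1643 genes in iPS against MEF and 10 in iPS against R1. It gave 0 members and 0 other pathway genes in iPS against R1. In iPS against MEF it gave 7 members, 0 higher and 7 lower. Fzd5 (adjusted p = 0.375 in that limma test), Wnt8a (0.351) and Sfrp1 lost their calls there. Members called in iPS against R1 numbered 2 with a pseudocount of 1 (Sfrp4 joined Wnt8a), 7 without a minimum difference and 0 in a fit of those arrays alone. In iPS against R1, the fit of all arrays gave 14 members an unadjusted limma p under 0.05, beside 4109 of all 19938 genes. This count has another threshold than the 0 and comes from a fit that takes in the MEF arrays. A pseudocount of 64 gave 45 genes and 1 other pathway gene in iPS against R1. Sfrp1 in iPS against MEF (-0.96) and Fzd4 (-0.98) and Fzd8 (-0.78) in R1 against MEF were not called with that pseudocount, nor was Fzd8 with quantile normalization (-0.94). Leaving out 1 array gave 10 to 11, 8 to 9 and 0 to 1 members, 2475 to 2594, 2677 to 2738 and 79 to 107 genes, and 19 to 22, 18 to 23 and 0 to 2 other pathway genes in the same order of comparisons. Of the alternative values for called members, 365 kept the call and 15 lost it, and for called other pathway genes 752 kept it and 27 lost it. None of these turned its sign.

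The sample titles give arrays of the same replicate number only that number in common. Correlations of their deviations from the group means ran from -0.08 to 0.24, beside -0.23 to 0.20 for pairs with unlike numbers. Highest were the pairs of replicate 1, at 0.24 for iPS and R1, 0.23 for iPS and MEF and 0.21 for R1 and MEF. Not every array correlated best with its own number, and what the replicate 1 arrays had in common was not tested. With the replicate block the counts of members were 10, 9 and 1, those of all genes 2524, 2691 and 92, and those of other pathway genes 19, 20 and 2. No detection calls were used, so differences of members with low signal are limited by an unknown background.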
